A study of Mus musculus with 6 samples.

Results

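Potassium channel genes were followed as C2C12 cells, an established mouse myoblast line that fuses into multinucleated myotubes, differentiated. They were taken as all genes whose symbol begins with *Kcn*, without the antisense and opposite-strand transcripts named after them, which gave 95 of the 54525 genes listed. Of these, 94 are channel subunits or proteins that bind them, and the other is *Kcnq1ot1*, a long noncoding RNA. RNA-seq was available from 3 cultures of wild-type, untreated C2C12 myoblasts at day 0 (D0), kept in serum-rich growth medium, and from 3 cultures after 5 days (D5) in low-serum medium with horse serum. All 6 libraries come from the same immortal line, and the bulk RNA of a D5 culture mixes myotubes with cells that did not fuse, so fewer cells of a kind and less RNA per cell cannot be told apart. Nothing beyond the labels says how far the 3 cultures of a group were separated, and p-values measure the spread between these cultures.

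Potassium channels let potassium leave the cell and so hold the membrane at a negative potential or return it there after an action potential. Voltage-gated alpha subunits open on depolarization. Calcium-activated channels couple the membrane to internal calcium, inward rectifiers and tandem-pore-domain channels carry resting current, and auxiliary subunits change the gating or surface level of the pores. Skeletal muscle fibers are known for inward rectifiers, ATP-sensitive channels and delayed rectifiers, and small-conductance calcium-activated channels are known from immature and denervated muscle.

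Gene counts per library lay between 36555048 and 40895840 at D0 and between 25449759 and 25811300 at D5. The *Kcn* genes are therefore given as CPM, counts per 1000000 counts after scaling with edgeR's TMM factors, or, where levels of different genes are set side by side, as TPM, which also divides by the exonic length of each gene. A value after ± is the SD over the 3 libraries of a group. The labels held: the 9 myotube markers summed to between 38.8 and 47.4 CPM in the D0 libraries and to between 13462 and 14188 CPM in the D5 libraries, and the 6 myoblast and proliferation markers fell from at least 1766 CPM to at most 204 CPM. Of the neuron markers, *Rbfox3* had no count in any library and *Snap25* at most 1, whereas *Stmn2* rose, so that the neuron list summed to between 3.39 and 4.25 CPM at D0 and between 31.7 and 35.8 CPM at D5. The leukocyte marker *Ptprc* and the cardiac marker *Myl7* had at most 1 count, while *Myh6* of the cardiac list reached 26.7 ± 3.09 CPM at D5. Summed over each list, smooth muscle markers ran from 277 to 287 CPM at D0 and from 131 to 133 at D5, Schwann cell markers from 1.79 to 2.04 and from 1.00 to 1.22, cardiac markers from 0 to 0.0496 and from 23.2 to 29.2, endothelial markers from 2.46 to 2.97 and from 0.324 to 0.402, and leukocyte markers from 3.05 to 3.31 and from 1.89 to 2.60.

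Most *Kcn* genes were not or hardly detected in this line. Of the 95 genes, 35 had no count in any library, and 16 more had at most 3 counts in any library. Another 12 reached higher counts without having 10 counts in 3 libraries, the level from which genes are described here. The 32 genes left were 10 of 30 voltage-gated alpha subunits, 1 of 10 electrically silent voltage-gated subunits, 5 of 13 auxiliary proteins of voltage-gated channels, 6 of 12 calcium- or sodium-activated subunits, 5 of 15 inward rectifiers, 4 of 14 tandem-pore-domain channels and *Kcnq1ot1*. Of these, 16 had 10 counts in all 6 libraries, 11 reached that count in all D5 libraries but not in all D0 libraries, and 4 in all D0 libraries but not in all D5 libraries. Nearest to that level were *Kcnrg* inside it, with 6, 5 and 10 counts at D0 and 11, 12 and 9 at D5, and *Kcnu1* outside it, with 0, 5 and 3 counts at D0 and 16, 12 and 8 at D5.

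The comparison of D5 and D0 used the quasi-likelihood test of edgeR, and Benjamini-Hochberg adjustment ran over the 16290 genes that its filter on low counts kept. That filter kept 31 of the 32 genes, without *Kcnip3*. At an adjusted p under 0.05, which 82.9% of all genes tested passed in either direction, 21 were higher at D5, where 42.2% of all genes tested were higher, 7 were lower, where 40.8% of all genes were lower, and 3 passed in neither direction. Changes of at least 2-fold were common: 18 genes rose that far, against 19.3% of all genes, and 5 fell that far, against 16.0% of all genes. The 21 higher genes also had every D5 library above every D0 library (42.2% of all genes did), and the 7 lower genes every D5 library below (41.1% of all genes did). The median log2 fold change of the 31 genes was 2.15, against 0.0022 over all genes tested. A gene with counts in a single group can only pass the filter by differing. Among the 16 genes with 10 counts in every library, 9 were higher and 4 lower, and of all 13713 genes of that kind 41.9% were higher and 41.9% lower.

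**Figure D1:**
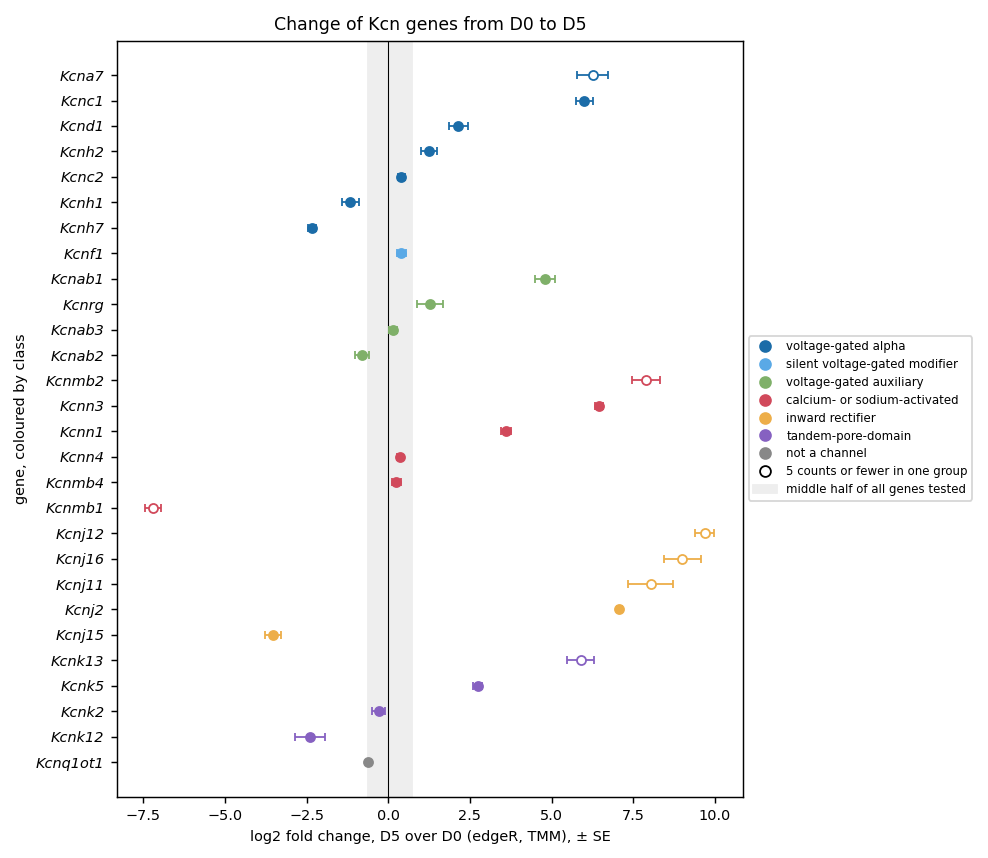
Log2 fold change from D0 to D5 (horizontal axis, edgeR with TMM) with its standard error for the *Kcn* genes tested and reported here, coloured by class. Open symbols mark genes with 5 counts or fewer in one group, whose fitted value depends on the prior count, and the grey band spans the interquartile range of all genes, from -0.63 to 0.71. *Kcnj12*, *Kcnj16* and *Kcnj11* hold the highest values and *Kcnmb1* the lowest. With scaling to spike-ins *Kcnc2*, *Kcnf1*, *Kcnn4*, *Kcnab3* and *Kcnmb4* change sign, without a call.

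Added over the 94 channel genes, transcripts summed to 49.4, 51.1 and 51.2 TPM in the D0 libraries and to 187, 182 and 191 TPM in the D5 libraries, and their makeup shifted between classes. At D0, calcium-activated subunits took from 37.3% to 37.9% of this sum and inward rectifiers from 4.79% to 5.69%. At D5 the order was turned, with 14.2% to 14.8% for calcium-activated subunits and 34.1% to 34.4% for inward rectifiers. The summed TPM of calcium-activated subunits still rose, from 19.0 ± 0.275 at D0 to 27.2 ± 0.129 at D5. That of inward rectifiers rose from 2.70 ± 0.292 to 64.0 ± 1.73. Voltage-gated alpha subunits took from 29.5% to 31.5% at D0 and from 39.8% to 40.7% at D5. In myotubes *Kcnj2* had 26.6% ± 0.678 of the sum, at 49.7 ± 2.39 TPM, and *Kcnj12* had 6.08% ± 0.510. In myoblasts *Kcnmb1* had 16.9% ± 0.715, *Kcnn4* 13.2% ± 0.808 and *Kcnab3* 10.7% ± 0.567.

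**Figure D2:**
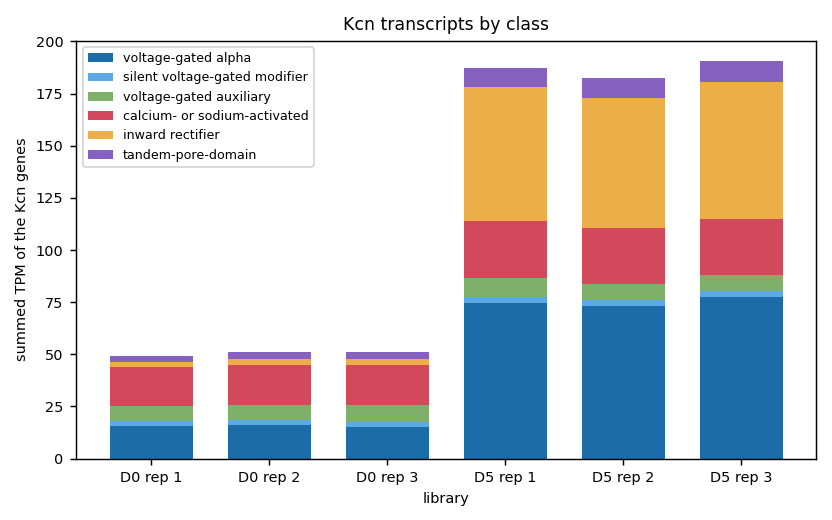
Summed TPM of the *Kcn* channel genes (vertical axis) in each of the 6 libraries, stacked by class. The D0 bars end between 49.4 and 51.2 TPM and the D5 bars between 182 and 191 TPM, and inward rectifiers widen from at most 5.69% to at least 34.1% of the bar.

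Of the 5 inward rectifiers described, 4 rose and 1 fell, beside 42.2% of all genes tested higher and 40.8% lower. *Kcnj11*, *Kcnj12* and *Kcnj16* reached 10 counts only at D5 and *Kcnj15* only at D0, so these could hardly come out as unchanged. *Kcnj2* (ENSMUSG00000041695.2, chromosome 11 of GRCm38 from 111066164 to 111076821) encodes a strong inward rectifier that holds the resting potential of muscle and heart cells. It had 0.533, 0.808 and 0.571 CPM in the D0 libraries and 86.0, 84.0 and 91.5 CPM in the D5 libraries. No other *Kcn* channel gene reached this CPM at D5, and the groups lay far apart. The mean was 137-fold higher at D5, a log2 fold change of 7.08 (standard error 0.085, edgeR adjusted p = 8.2e-34). *Kcnj12*, which encodes a close relative of the same strong rectifier group, had 0, 1 and 0 counts at D0 and 237, 270 and 244 at D5. That is a ratio of 1205 with a counting interval from 216 to 47662 (95%, exact, counting error only), and its adjusted p was 2.3e-23 in edgeR's test. The fitted log2 fold change of *Kcnj12* was 9.69, and 11.26 without D0 replicate 2, which held its only D0 count.

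*Kcnj11* and *Kcnj16* had no count in any D0 library. *Kcnj11*, the pore of ATP-sensitive channels, had 29, 26 and 20 counts at D5, at least 40.1-fold higher if up to 3 counts over the 3 D0 libraries are allowed for. *Kcnj16*, a subunit that needs another inward rectifier to form a working channel, had 51, 47 and 49 counts at D5, at least 78.6-fold higher by the same limit. Its best-known partner *Kcnj10* had no count in any library. In edgeR's test the adjusted p was 1.7e-11 for *Kcnj11* and 1.2e-14 for *Kcnj16*. *Kcnj16* lies on chromosome 11 from 110968033 to 111027968, on the same strand as *Kcnj2* and 38195 bases before it.

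*Kcnj15*, an inward rectifier known from kidney and other epithelia, went the other way. It had 119, 127 and 127 counts at D0 and 5, 6 and 9 at D5, and the groups did not overlap. Its level fell from 3.11 ± 0.0842 CPM to 0.268 ± 0.0840 CPM, 11.6-fold (edgeR, adjusted p = 2.8e-14). The other 10 inward rectifiers were not described. *Kcnj14* came nearest, with 5, 12 and 13 counts at D0 and 0, 4 and 3 at D5, and *Kcnj8*, the other pore of ATP-sensitive channels, had 0, 1 and 2 counts at D0 and 8, 2 and 4 at D5.

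Sequences before the start sites are shown for *Kcnj2* and its neighbour *Kcnj16*, which both rose, for *Kcnn1*, the rising gene with the most CAGCTG in a single stretch, and for *Kcnmb1*, the gene with the largest fall. They are the 250 bases before the start in RefSeq's annotation of GRCm38.p6, written 5′ to 3′ on the strand of the gene. Capitals mark E-boxes (CANNTG, the kind of site that myogenic basic helix-loop-helix factors bind, CAGCTG being 1 form of it) and matches to the MEF2 motif, searched on both strands.
Kcnj2, chr11:111065914-111066163 on the plus strand: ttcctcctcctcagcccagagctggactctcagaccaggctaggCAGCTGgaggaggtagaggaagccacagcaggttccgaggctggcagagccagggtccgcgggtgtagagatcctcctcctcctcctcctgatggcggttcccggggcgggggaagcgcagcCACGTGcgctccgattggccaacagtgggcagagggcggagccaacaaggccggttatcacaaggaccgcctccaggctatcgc
Kcnj16, chr11:110967783-110968032 on the plus strand: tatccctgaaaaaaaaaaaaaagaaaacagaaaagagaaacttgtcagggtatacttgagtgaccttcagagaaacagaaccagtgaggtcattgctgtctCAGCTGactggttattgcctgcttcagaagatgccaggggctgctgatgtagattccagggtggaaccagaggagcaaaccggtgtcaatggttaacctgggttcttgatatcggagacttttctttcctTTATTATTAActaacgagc
Kcnn1, chr8:70863259-70863508 on the minus strand: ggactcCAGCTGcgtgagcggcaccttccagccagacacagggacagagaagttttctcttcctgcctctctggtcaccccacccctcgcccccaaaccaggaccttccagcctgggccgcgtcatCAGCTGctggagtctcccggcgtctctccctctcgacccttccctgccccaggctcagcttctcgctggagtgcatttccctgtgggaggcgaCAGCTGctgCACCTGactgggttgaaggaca
Kcnmb1, chr11:33962763-33963012 on the plus strand: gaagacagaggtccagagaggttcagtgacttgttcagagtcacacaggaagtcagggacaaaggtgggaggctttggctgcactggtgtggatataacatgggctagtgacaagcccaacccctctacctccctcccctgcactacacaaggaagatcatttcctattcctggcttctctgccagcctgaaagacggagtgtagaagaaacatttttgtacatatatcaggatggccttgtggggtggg
*Kcnj2* held CAGCTG 206 bases and CACGTG 84 bases before the start. *Kcnj16* held CAGCTG 149 bases and a MEF2 motif 19 bases before the first of its 4 listed starts. The stretches before its other starts held no E-box and no MEF2 motif. *Kcnn1* held CAGCTG 244, 124 and 31 bases and CACCTG 22 bases before the first of its 2 starts. The stretch before its other start held 4 E-boxes, with CAGCTG 142 bases before that start. No E-box, MEF2 motif or CArG box, a site of serum response factor, was found in the stretch of *Kcnmb1*. The same held for the stretches of *Kcnn3* and *Kcnmb2*, which rose. Promoters were listed for 26 of the 32 genes, and *Kcnd1*, *Kcnab3* and *Kcnj11* were among those not listed. Of the 16 higher genes with a promoter, 12 held CANNTG and 4 held CAGCTG in at least 1 of 25 listed stretches. Of the 7 lower genes, 5 held CANNTG and 0 held CAGCTG in 9 stretches. CAGCTG was not confined to higher genes. Of the 2 genes without a call, 1 (*Kcnk2*) held it, and so did *Kcnip3*, which was not tested and had fewer counts at D5. Counted by stretch, 18 of the 25 of higher genes held CANNTG and 8 held CAGCTG, some of these being overlapping stretches of *Kcnc2*. In the 9 stretches of lower genes these numbers were 6 and 0. Over all 32851 listed promoters cut to the same length, also by stretch, 66.2% held CANNTG, 13.0% CAGCTG, 2.92% the MEF2 motif and 1.47% the CArG box. Counts by gene are another measure, since several genes had more than 1 stretch. These matches describe the letters and were not tested for binding.

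Voltage-gated alpha subunits, which form the pores that repolarize excitable membranes, were mostly higher in myotubes. All 10 described were called, 8 higher and 2 lower, beside 42.2% of all genes tested higher and 40.8% lower. Of the *Kcnq* channel genes reported here, *Kcnq1* had at most 7 counts, and *Kcnq3* and *Kcnq5* had none. The rest of that family is not reported here, so these counts do not describe it as a whole.

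The *Kcnc* genes encode fast channels of the kind that lets neurons fire at high rates. *Kcnc1* had 1, 2 and 8 counts at D0 and 145, 163 and 149 at D5, a ratio of 66.7 (counting interval 36.9 to 134). D0 replicate 3 held most of its D0 counts, and without it the log2 fold change of *Kcnc1* was 7.18 in place of 6.0. *Kcnc1* passed edgeR's test with adjusted p = 2.9e-19, and no library of 1 group reached the other. *Kcnc2* was at nearly the same level in both groups, 4.19 ± 0.131 CPM at D0 and 5.49 ± 0.292 CPM at D5. This was a rise in edgeR's test (adjusted p = 0.0015). With scaling to spike-ins the log2 fold change of *Kcnc2* was -0.21, without a call (edgeR, adjusted p = 0.78). *Kcnc4* had at most 1 count.

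*Kcna7*, the Shaker-family gene known for its expression in skeletal and heart muscle, had 2, 0 and 0 counts at D0 and 39, 35 and 43 at D5. The ratio was 93.9 with a counting interval from 25.4 to 784, and the adjusted p was 4.2e-13 in edgeR's test. Both D0 counts of *Kcna7* came from D0 replicate 1, without which the log2 fold change was 8.62 in place of 6.26. The other *Kcna* genes had at most 6 counts in any library. *Kcnd1*, which carries a transient A-type current, rose from 6, 13 and 14 counts to 28, 32 and 32 (log2 fold change 2.15, edgeR adjusted p = 7.3e-08). *Kcna7*, *Kcnj11* and *Kcnc1* all lie between 45405653 and 46438704 on chromosome 7, a grouping seen only after their values were known. *Kcnj14*, which was not tested, lies in the same interval and had fewer counts at D5 (0, 4 and 3) than at D0 (5, 12 and 13). *Kcnc1* starts 17397 bases beyond the end of *Myod1*, the myogenic factor gene, whose log2 fold change was -0.71.

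The *Kcnh* genes, relatives of the ether-a-go-go channel, moved in both directions. *Kcnh7*, a channel of the erg type, had 10.2, 9.34 and 9.70 CPM at D0 and 1.95, 1.87 and 1.97 CPM at D5. This was a 5.06-fold fall (log2 fold change -2.34, standard error 0.11, edgeR adjusted p = 5.3e-18). *Kcnh1*, an channel known from proliferating cells, fell from 54, 49 and 59 counts to 14, 21 and 10 (log2 fold change -1.16, edgeR adjusted p = 0.00014). *Kcnh2*, the erg channel that repolarizes the heart, rose from 0.633 ± 0.0838 CPM to 1.5 ± 0.418 CPM. Its adjusted p was 3.1e-05 in edgeR's test, a call that was lost with scaling to spike-ins.

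Calcium-activated subunits were split. *Kcnn1* and *Kcnn3* encode small-conductance channels that open with internal calcium and follow the action potential with a slow hyperpolarization. *Kcnn3* (chromosome 3 from 89520164 to 89675132) had 11, 9 and 17 counts at D0 and 698, 665 and 687 at D5. It rose from 0.310 ± 0.105 CPM to 27.4 ± 0.423 CPM, 88.6-fold (edgeR, adjusted p = 9.4e-29). *Kcnn1* rose 12.2-fold, from 21, 26 and 22 counts to 166, 188 and 169 (edgeR, adjusted p = 4.0e-19). In both genes every D5 library lay above every D0 library. *Kcnn2*, the remaining small-conductance gene, had no count. *Kcnn4*, the intermediate-conductance channel of lymphocytes and red cells, was among the most abundant in myoblasts, with 9.89 ± 0.667 CPM. It had 12.6 ± 0.339 CPM in myotubes, a rise in edgeR's test (log2 fold change 0.34, adjusted p = 0.00011). With scaling to spike-ins the log2 fold change of *Kcnn4* was -0.24, without a call (edgeR, adjusted p = 0.75).

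The *Kcnmb* genes encode beta subunits of the large-conductance channel gated by both calcium and voltage. Of those tested, 1 fell, 1 rose and 1 had no call, beside 42.2% of all genes tested higher and 40.8% lower. *Kcnmb1* (ENSMUSG00000020155.2, chromosome 11 from 33963013 to 33973641), the beta subunit known from smooth muscle, had 394, 419 and 430 counts at D0 and 0, 3 and 2 at D5. The ratio of D0 to D5 was 155 with a counting interval from 66.2 to 478, and the adjusted p was 2.9e-22 in edgeR's test. D5 replicate 2 held most of the D5 counts of *Kcnmb1*, and without it the log2 fold change was -7.89 in place of -7.20. *Kcnmb2*, a beta subunit that makes the channel inactivate, had 0, 1 and 0 counts at D0 and 74, 67 and 74 at D5, a ratio of 345 (counting interval 61.3 to 13690, edgeR adjusted p = 6.1e-17). The fitted log2 fold change of *Kcnmb2* was 7.88, and 9.45 without D0 replicate 2. *Kcnmb4*, the beta subunit best known from brain, had 3.01 ± 0.101 CPM and 3.56 ± 0.546 CPM, groups that overlapped (edgeR, adjusted p = 0.098). Its call passed without D5 replicate 1, with an adjusted p of 0.020, and 31.5% of its exonic length is shared with genes on the opposite strand. The pore gene *Kcnma1*, named here because of these values, had 0, 0 and 0 counts at D0 and 3, 0 and 1 at D5.

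Markers of smooth muscle moved unevenly beside *Kcnmb1*. *Cnn1* fell from 155 to 1.03 CPM, *Smtn* had 126 and 131 CPM, and *Myh11*, the defining smooth muscle myosin, had from 2 to 8 counts in every library. Their part in the fall of *Kcnmb1* was not tested. *Kcnmb1* lies within *Kcnip1*, on the opposite strand, and *Kcnip1* had no count in any library.

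Tandem-pore-domain channels, which carry background potassium current, gave 2 rises, 1 fall and 1 gene without a call. Over all genes tested, 42.2% were higher and 40.8% lower. *Kcnk5*, a channel that responds to external pH, rose from 0.960, 0.903 and 1.04 CPM to 6.33, 6.37 and 6.71 CPM, 6.68-fold (edgeR, adjusted p = 3.1e-17). *Kcnk13* rose from 1, 0 and 3 counts to 44, 58 and 62, a ratio of 65.8 (counting interval 25.2 to 244, edgeR adjusted p = 3.3e-14). Without D0 replicate 3 the log2 fold change of *Kcnk13* was 7.04, and 5.30 without D0 replicate 2, in place of 5.88. *Kcnk12*, its close relative, went the other way, from 24, 29 and 25 counts to 4, 0 and 5, 5.42-fold lower in CPM (edgeR, adjusted p = 1.8e-05). *Kcnk2*, which opens with membrane stretch, averaged 1.55 ± 0.162 CPM at D0 and 1.26 ± 0.217 CPM at D5, and its groups overlapped (edgeR, adjusted p = 0.16).

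Of the auxiliary proteins of voltage-gated channels tested, 2 rose, 1 fell and 1 had no call. Over all genes tested, 42.2% were higher and 40.8% lower. *Kcnab1*, a beta subunit that speeds inactivation, had 3, 5 and 3 counts at D0 and 81, 62 and 55 at D5, a ratio of 28.9 (counting interval 15.8 to 58.8, edgeR adjusted p = 4.7e-15). *Kcnab2*, which promotes the surface expression of the pores, fell from 1.52 ± 0.162 CPM to 0.870 ± 0.189 CPM (edgeR, adjusted p = 0.0014). *Kcnab3* was the most abundant of these genes in both groups and did not pass the test, with 4.49 ± 0.237 CPM at D0 and 4.95 ± 0.571 CPM at D5 (edgeR, adjusted p = 0.25). *Kcnrg*, a regulator of channel assembly, rose from 0.176 ± 0.0661 CPM to 0.429 ± 0.0630 CPM (edgeR, adjusted p = 0.0043), a call lost with scaling to spike-ins. *Kcnip3*, a calcium-binding partner that also acts as a transcriptional repressor, had 21, 11 and 16 counts at D0 and 5, 3 and 1 at D5 and was below the filter of the test. The silent subunit *Kcnf1*, which alters the gating of other voltage-gated pores, averaged 2.96 ± 0.174 CPM at D0 and 3.91 ± 0.224 CPM at D5. This was a rise in edgeR's test (adjusted p = 0.0056). With scaling to spike-ins the log2 fold change of *Kcnf1* was -0.20, without a call (edgeR, adjusted p = 0.79). *Kcnq1ot1*, transcribed from the imprinted *Kcnq1* locus against that gene, fell from 87.4 ± 3.80 CPM to 57.2 ± 5.0 CPM (edgeR, adjusted p = 4.3e-13), and with scaling to spike-ins its log2 fold change moved from -0.61 to -1.22 while its adjusted p rose to 0.057. The strand setting of the counting is not stated, so reads of *Kcnq1* and *Kcnq1ot1* may not be told apart where they overlap.

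**Figure D3:**
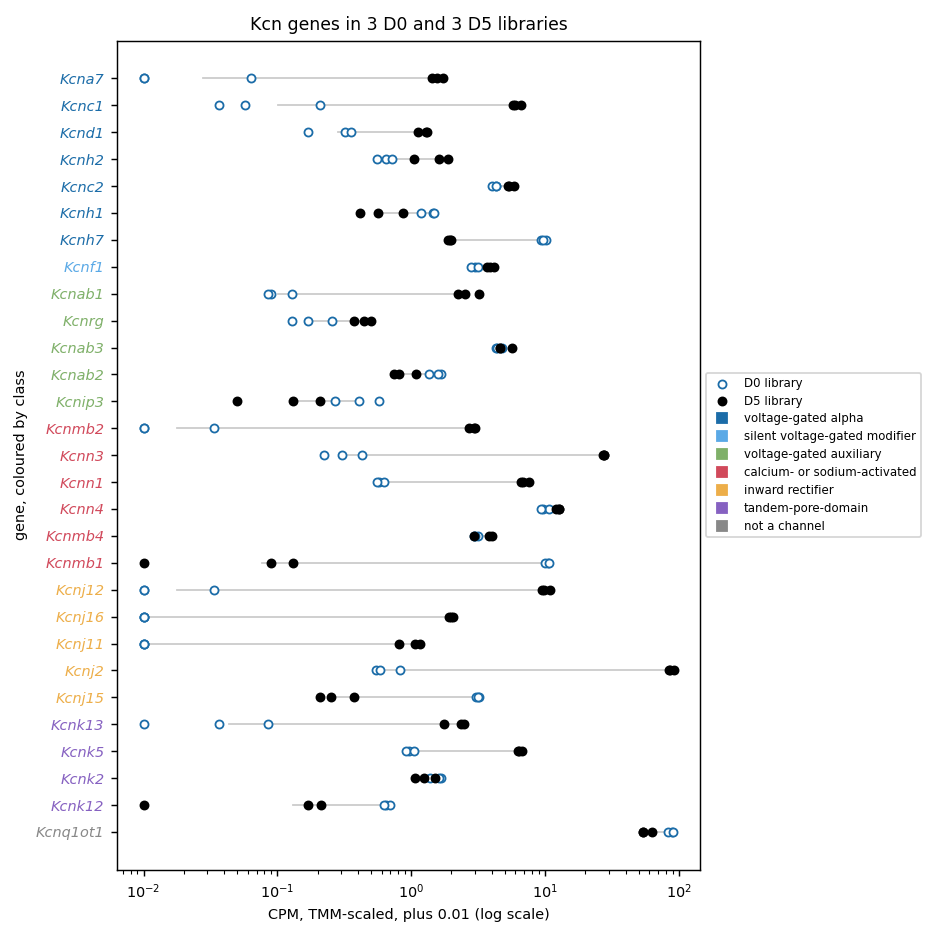
TMM-scaled CPM plus 0.01 (horizontal log axis) of the *Kcn* genes described and reported here, with each D0 library as an open and each D5 library as a filled circle, and a grey line between the group means. Points at the left edge are libraries with no count. The groups are apart for all genes called and overlap for *Kcnab3*, *Kcnk2* and *Kcnmb4*.

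Partners of these channels outside the *Kcn* symbols, channel relatives and potassium transporters were read from a list of 21 genes, of which 14 were tested, 9 higher, 3 lower and 2 without a call, beside 42.2% and 40.8% of all genes higher and lower. *Abcc9*, a sulfonylurea receptor subunit of ATP-sensitive channels, had no count at D0 and 177, 187 and 208 at D5, at least 306-fold higher, and *Abcc8*, the other such subunit, had 3, 0 and 1 counts at D0 and 80, 77 and 65 at D5. *Abcc8* lies 3758 bases from *Kcnj11* on chromosome 7, and *Abcc9* 16247 bases from *Kcnj8* on chromosome 6. *Amigo1*, an auxiliary subunit of delayed rectifiers, rose from 5.53 ± 0.252 CPM to 42.4 ± 0.338 CPM, and *Lrrc26*, a gamma subunit of the large-conductance channel, had no count at D0 and 103, 112 and 91 at D5, at least 164-fold higher. For these 4 genes the adjusted p was no higher than 4.4e-16 in edgeR's test.

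*Tmem38a* and *Tmem38b*, cation channels of the sarcoplasmic reticulum, rose 51.2-fold and 10.7-fold, to 633 and 194 CPM. *Slc12a2*, which brings potassium in with sodium and chloride, rose 3.88-fold, while the potassium-chloride exporters *Slc12a7* and *Slc12a4* were lower, with log2 fold changes of -1.09 and -0.46. With scaling to spike-ins *Slc12a7* kept its call (log2 fold change -1.66), and *Slc12a4* lost it at a log2 fold change of -1.04 (edgeR, adjusted p = 0.11). *Hcn2* and *Hcn3*, hyperpolarization-activated channels, had log2 fold changes of 1.45 and 0.89 and were both higher, calls that were lost with scaling to spike-ins (0.89 and 0.20). The lysosomal channel *Tmem175* and *Slc12a5* did not pass the test. *Dpp6* and *Hcn4* stayed under the filter, and *Dpp10*, *Lrrc38*, *Lrrc52* and *Lrrc55* had no count.

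Genes with small changes depended on the scaling. With libraries scaled to the summed ERCC spike-ins, synthetic RNAs that took from 0.720% to 2.09% of the counts, the median log2 fold change of all genes moved from 0.0022 to -0.58. The *Kcn* genes then numbered 16 higher and 6 lower, against 21 and 7 with TMM. Of all 16290 genes tested, 1813 were higher and 3747 lower with scaling to spike-ins. Spike-in shares differed most among the D5 libraries, from 0.720% in replicate 2 to 2.09% in replicate 3. Every *Kcn* gene with a log2 fold change of at least 2 or at most -2 with TMM kept its direction and its call in this scaling. Sequence shared with other genes was short: at most 1.33% of the 50-base stretches in the transcripts of any of the 32 genes also occur in transcripts of another gene.

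**Figure D4:**
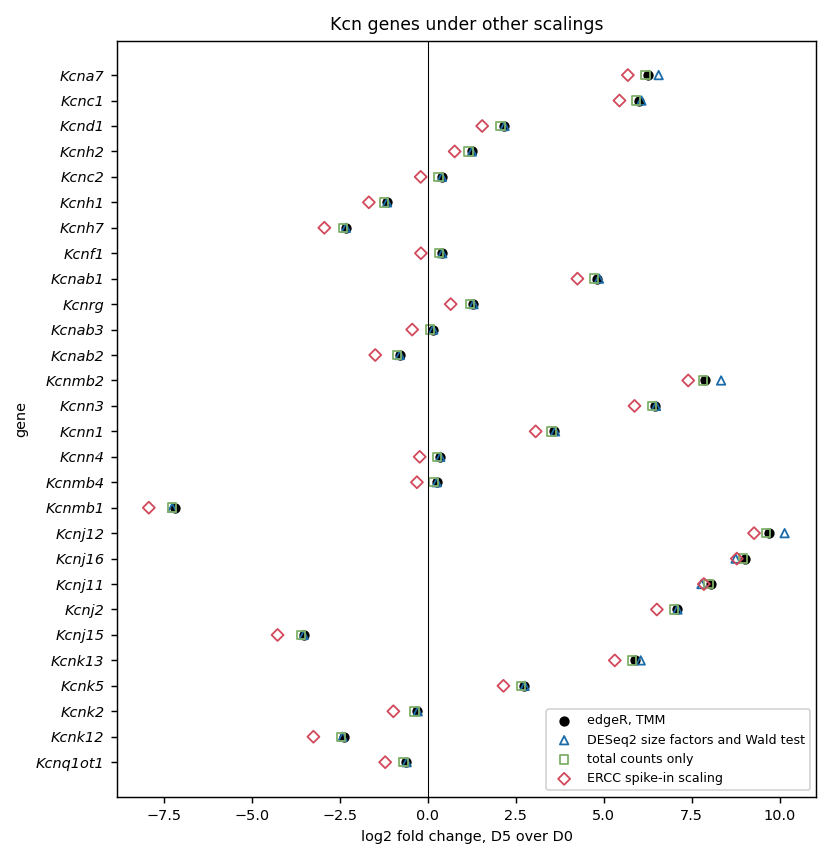
Log2 fold change from D0 to D5 (horizontal axis) of the *Kcn* genes tested and reported here with edgeR and TMM, DESeq2, total counts only, and scaling to ERCC spike-ins. Spike-in scaling moves the genes to the left, and *Kcnc2*, *Kcnf1*, *Kcnab3*, *Kcnn4* and *Kcnmb4* cross 0.

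Most genes that were not described are named here. No count was found for *Kcna1*, *Kcna2*, *Kcna5*, *Kcna6*, *Kcna10*, *Kcnb2*, *Kcnd3*, *Kcne2*, *Kcne3*, *Kcng1*, *Kcng3*, *Kcng4*, *Kcnh5*, *Kcnh8*, *Kcnip1*, *Kcnj1*, *Kcnj5*, *Kcnj6*, *Kcnj10*, *Kcnk1*, *Kcnk9*, *Kcnk10*, *Kcnk15*, *Kcnk16*, *Kcnk18*, *Kcnn2*, *Kcnq3*, *Kcnq5*, *Kcns1*, *Kcns2*, *Kcns3*, *Kcnt1*, *Kcnv1* and *Kcnv2*, which allows up to 3 counts over the libraries of a group and covers counting error only. At most 3 counts in any library were found for *Kcna3*, *Kcnc4*, *Kcnd2*, *Kcne1*, *Kcne1l*, *Kcnh4*, *Kcnh6*, *Kcnip4*, *Kcnj3*, *Kcnj9*, *Kcnj13*, *Kcnk3*, *Kcnk4*, *Kcnk6*, *Kcnma1* and *Kcnmb3*. *Kcna4*, *Kcne4*, *Kcng2*, *Kcnh3*, *Kcnip2*, *Kcnj4*, *Kcnj8*, *Kcnj14*, *Kcnk7*, *Kcnq1*, *Kcnt2* and *Kcnu1* had from 4 to 16 counts in their highest library.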

How the data were processed

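Raw read counts per gene were deposited, 1 file for each of 6 C2C12 libraries. Per the labels the authors aligned the reads to GRCm38 with Tophat2 and per the paper's methods with HISAT2, and counted them with featureCounts, without normalization of the deposited counts. Which annotation release and strand setting were used, and how reads with several matches were counted, is not given in the sources used here. The labels name DESeq2 1.6.3 for the authors' tests. Here, 92 ERCC rows and 1 unnamed row equal to the column total were left out of each library.

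From these counts, CPM with TMM factors, log2 fold changes (D5 over D0) and quasi-likelihood p-values came from edgeR 4.0.16 (R 4.3.3) after filterByExpr, with the group as the only term. The standard error of a log2 fold change was taken as its size over the root of the F statistic. TPM used exonic lengths of GENCODE's GRCm38 annotation, which held 99.9% of the identifiers. Counting intervals are exact and conditional on the summed counts (95%). Libraries of a group differed by more than sampling noise (chi-square over its degrees of freedom, 2.32 to 3.73) and were each counted once. A two-sided exact test of 3 libraries against 3 cannot give a p under 0.1.

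*Kcn* genes with at least 10 counts in 3 libraries were described, and by library up to 15 in each direction that were called and averaged 20 counts or more in a group. Other values by library (*Kcnd1*, *Kcnrg*, *Kcnip3* and genes not described) were added after they were seen. The genes, classes, marker and partner lists were chosen with earlier results of these data known. Alternatives were DESeq2 1.42.0, upper-quartile factors, total counts, spike-in scaling, 3 other filters, each library left out and a replicate block. Simulated data were used to test the scripts. Some genes are counted in the totals but not reported here by name or drawn in the plots by gene.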

Additional observations from a re-analysis of the deposited data

How the results depend on the processing

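With DESeq2, upper-quartile factors, total counts and the replicate block, *Kcn* genes numbered 21 higher and 7 lower, as with TMM. Their median log2 fold change of 2.15 moved with the filter: it was 0.87 with no filter on low counts, 1.72 with at least 10 counts in 3 libraries, and 0.37 with at least 10 counts in every library, where 9 genes were higher and 4 lower, and 9 and 4 did not overlap. Leaving out each library gave medians from 1.65 to 2.42, 22 to 23 higher and 7 to 9 lower genes.

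Scaling to the ERCC spike-ins gave a median of 1.54, 5560 genes past the threshold in place of 13510, 67.4% of them lower in place of 49.2%, and 7 higher and 1 lower partner genes in place of 9 and 3. The log2 fold change of *Kcnab3* was then -0.45, of *Kcnc2* -0.21, of *Kcnf1* -0.20, of *Kcnmb4* -0.31 and of *Kcnn4* -0.24. None of these was called lower (edgeR, adjusted p from 0.53 for *Kcnab3* to 0.79 for *Kcnf1*). *Kcnh2* (0.76), *Kcnrg* (0.65) and *Kcnq1ot1* (-1.22) kept their direction and lost their call. The spike-in shares varied between D5 libraries, and the cause was not tested.

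Whether the replicate numbers in the labels pair the cultures is not known. Deviations from group means (genes with at least 5 CPM) correlated with r = 0.0043, 0.17 and 0.095 for numbers 1, 2 and 3. Unlike numbers gave r from -0.13 to 0.044, and D0 replicate 1 correlated more with D5 replicate 3 (0.018) than with D5 replicate 1. With the number as a block the median log2 fold change of the *Kcn* genes was 2.16, and 13558 genes passed.

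Fold changes of genes with 5 counts or fewer in a group rest on few counts, as with *Kcnj12*, whose counting interval ran from 216 to 47662.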

Other observations

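Transcripts named after a *Kcn* gene but read from the opposite strand were outside the genes described. *Kcnab3os* had 3, 4 and 3 counts at D0 and 2, 4 and 10 at D5, and *Kcnmb4os2* had 7, 6 and 3 counts at D0 and 3, 3 and 3 at D5. *Kcnmb4os1* had at most 1 count in any library and *Kcnd3os* had none.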
